A study of Homo sapiens with 8 samples.

Results

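The 10 genes described here encode enzymes that make, lengthen, desaturate and activate fatty acids: *FASN*, *ACACA*, *ACLY*, *SCD*, *FADS1*, *FADS2*, *ELOVL5*, *ELOVL6*, *ACSL3* and *ME1*. They were taken by name from the 58051 genes of the deposited count tables, and all 10 were among the 17671 genes with enough reads to be tested. RNA was measured in 8 libraries of A375, an established human melanoma cell line, from 4 wild-type lines (WT1 to WT4) that are each 1 clone grown from a single cell. Each line was rinsed and kept for 12 h in DMEM, either with 10% fetal bovine serum (FBS) or without it, which gave 1 library per line and condition. The study asked how transcription responds when serum is withdrawn. The libraries labelled WT4 carry another clone name in the deposited counts, so only its label identifies this line.

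Fatty acids are built in the cytosol from acetyl-CoA. *ACLY* encodes the lyase that splits citrate into acetyl-CoA, *ACACA* the carboxylase that turns acetyl-CoA into malonyl-CoA, and *FASN* the synthase that joins these units into palmitate with NADPH, part of which malic enzyme (*ME1*) supplies. ELOVL enzymes then lengthen the chain, SCD places the first double bond in saturated chains, and the FADS desaturases add double bonds to polyunsaturated chains. ACSL3 couples fatty acids to coenzyme A so that they can enter membranes and lipid droplets. Many of these genes are known targets of the sterol regulatory element-binding proteins (encoded by *SREBF1* and *SREBF2*), membrane-bound transcription factors that INSIG proteins hold in the endoplasmic reticulum when sterols are plentiful.

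Without serum, the desaturase genes *SCD* and *FADS2* were higher in all 4 lines, by 1.48-fold and 1.37-fold, and the elongase gene *ELOVL5*, *ME1* and *ACACA* were lower in all 4. The rise of *FADS2* and the fall of *ME1* (to 0.854-fold) passed edgeR's test without regard to line, and *SCD* and *ELOVL5* passed as well once each line was compared with itself. A correction for GC content ended the calls of *FADS2* without the line term and of *ME1* with and without it, and with the line term brought calls for *FASN* (-0.28 on the log2 scale), *ACACA* (-0.11), *ACSL3* (0.25) and *ELOVL6* (0.13). Before that correction, *FASN*, *ACLY*, *FADS1*, *ELOVL6* and *ACSL3* showed no common direction over the lines. The median log2 fold change of the 10 genes was 0.01, beside 0.03 for all genes tested.

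Between 29759279 and 67101005 reads were counted on genes in the libraries with serum, and between 37847737 and 73341551 in those without. Each of the 10 genes had between 675 and 78395 reads in a library. Reads that aligned to several places, which were not counted, made up 22.7% of the total in WT1 and 16.8% in WT2 with serum, against 5.73% to 10.1% in the other libraries, and their part in the results was not tested. Among melanocyte lineage markers, *SOX10*, a defining marker, was at 0 in all 8 libraries, and the pigment cell genes *TYR* (0 to 0.0524 CPM, a count scaled to library size), *TYRP1* (0 to 0.314), *PMEL* (0.190 to 0.943), *MLANA* (0.711 to 1.44) and *DCT* (0.0711 to 2.90) were near 0. Why *SOX10* is listed at 0 is not known, since neither the annotation release nor the strand setting of the counts is stated. *MITF* was at 35.3 to 44.2 CPM with serum and 30.1 to 35.6 without, lower in all 4 lines (log2 fold change -0.28, edgeR's adjusted p = 0.0496, and 0.00351 with the block), a call lost with a GC correction without the block (-0.15, edgeR's adjusted p = 0.243). *S100A1* (3.02 ± 0.0791 to 5.42 ± 0.942 CPM, 0.84, edgeR's adjusted p = 0.00605) rose, and *PAX3* (0.29, 0.0716) and *S100B* (0.30, 0.492) were higher in all 4 lines without passing in that fit, so the list had no common direction. Summed over the list of 13 such genes, of which 8 were over 1 CPM, the level was 602 to 906 CPM with serum and 428 to 854 CPM without, most of it from *AXL* (481 to 656 CPM with serum and 309 to 580 without, lower in all 4 lines, edgeR's adjusted p = 0.253 and with the block 0.000588) and *NGFR* (24.1 to 199 CPM), which are known from less differentiated melanoma cells. The part of these markers in the results was not tested. Summed markers of other cell types were at 54.6 to 64.5 CPM with serum and 43.5 to 56.2 without for 4 keratinocyte genes (*KRT1* at 0). The sums were at 5.42 to 9.36 and 5.86 to 8.53 CPM for 4 fibroblast genes (*PDPN* at 0), and 0.421 to 1.78 and 0.719 to 1.87 CPM for 2 endothelial genes. In bulk RNA, fewer cells of a type and less RNA per cell cannot be told apart, and all values are relative to the RNA of the whole library.

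The start sites of the 4 genes called with or without a block for the line are shown here, with that of *SREBF2*, because the sterol regulatory element, the E-box and the NF-Y box are the motifs by which SREBP and its partners are known to bind. The windows hold the 250 bases before the annotated start, from RefSeq on GRCh38.p14. Promoter sequences were at hand for 9 of the 10 genes, all but *FASN*. Capitals mark CCAAT (NF-Y) in either orientation, CACGTG (E-box) and TCACCCCA, the core of the sterol regulatory element, with up to 1 mismatch on either strand. GGGCGG (Sp1) was also searched and is left in lower case.
*SCD*, chr10:100346983-100347232, plus strand: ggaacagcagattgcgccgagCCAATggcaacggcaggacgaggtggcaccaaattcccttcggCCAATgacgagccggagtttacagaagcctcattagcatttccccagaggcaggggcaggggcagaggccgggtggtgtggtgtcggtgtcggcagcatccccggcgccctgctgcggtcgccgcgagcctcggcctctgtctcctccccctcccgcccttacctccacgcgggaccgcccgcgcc
*FADS2*, chr11:61815953-61816202, plus strand: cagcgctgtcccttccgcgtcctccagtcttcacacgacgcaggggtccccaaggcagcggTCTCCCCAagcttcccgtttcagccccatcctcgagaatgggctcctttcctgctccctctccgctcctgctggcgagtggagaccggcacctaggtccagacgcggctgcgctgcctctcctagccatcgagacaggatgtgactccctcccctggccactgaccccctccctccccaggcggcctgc
*ELOVL5*, chr6:53348951-53349200, minus strand: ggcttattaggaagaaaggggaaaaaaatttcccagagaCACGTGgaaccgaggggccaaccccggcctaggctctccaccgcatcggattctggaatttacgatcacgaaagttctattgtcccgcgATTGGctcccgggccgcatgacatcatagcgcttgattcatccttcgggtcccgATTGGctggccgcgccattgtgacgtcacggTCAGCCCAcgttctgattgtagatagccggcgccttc
*ME1*, chr6:83431052-83431301, minus strand: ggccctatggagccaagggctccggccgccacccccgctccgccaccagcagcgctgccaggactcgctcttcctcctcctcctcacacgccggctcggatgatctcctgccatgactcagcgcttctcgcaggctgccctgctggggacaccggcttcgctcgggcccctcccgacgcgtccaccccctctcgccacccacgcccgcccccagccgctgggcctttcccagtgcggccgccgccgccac
*SREBF2*, chr22:41832855-41833104, plus strand: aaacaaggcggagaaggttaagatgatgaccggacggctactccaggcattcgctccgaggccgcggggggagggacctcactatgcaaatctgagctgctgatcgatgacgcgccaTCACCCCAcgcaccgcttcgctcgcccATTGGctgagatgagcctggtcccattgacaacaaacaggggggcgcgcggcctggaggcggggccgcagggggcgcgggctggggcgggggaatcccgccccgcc
The window of *SCD* holds CCAAT at 229 and 186 bases before the start and no match to the sterol element core. That of *FADS2* holds 1 match to the core with 1 mismatch, at 189 bases, and its second listed start holds none of the letters in capitals. The *ELOVL5* window holds the E-box at 211 bases, CCAAT read on the other strand at 122 and 68 bases, and the core with 1 mismatch at 37 bases. The *ME1* window holds none of the letters in capitals and GGGCGG once. *SREBF2*, a regulator that was higher without serum, holds the exact core at 133 bases, which none of the windows of the 9 genes does. The other regulators searched did not share it: the *SREBF1* window holds none of the letters in capitals, and that of *INSIG1* holds an E-box and CCAAT but no match to the core. Over 35116 promoter windows of the same length, the exact core is found in 1.29%, the core with up to 1 mismatch in 23.4%, the E-box in 6.34%, CCAAT in 32% and GGGCGG in 42.6%. Genes of the 10 that were not called without a GC correction held the same letters. *ACACA*, *ACLY* and *ACSL3* each have a window with CCAAT and the core with 1 mismatch. The windows of *FADS1* and *ELOVL6* hold none of the letters in capitals. Also searched were *ACSS2* and *LPIN1*, which each have a window with the core with 1 mismatch, that of *ACSS2* with CCAAT as well. The matches are letters in these windows and no test was made of them.

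Supply of acetyl-CoA and NADPH was represented by *ACLY* and *ME1*. *ACLY* (ENSG00000131473, chromosome 17 of GRCh38, 41866917 to 41930545) was at 367, 339, 404 and 372 CPM in WT1 to WT4 with serum and at 360, 341, 421 and 372 CPM without. No line moved by more than 0.06 on the log2 scale. The means were 371 ± 26.8 and 373 ± 34.4 CPM (SD, n = 4). On the log2 scale the difference was 0.01 ± 0.08 (SE), with a p of 0.945 from the quasi-likelihood test of edgeR, adjusted by Benjamini-Hochberg as everywhere here. With the line as a block, 2 standard errors on either side spanned -0.09 to 0.11 on the log2 scale.
*ME1* (ENSG00000065833, chromosome 6, 83210402 to 83431051), the cytosolic malic enzyme, was at 66.4, 67.6, 69.8 and 65.0 CPM with serum and at 60.5, 59.1, 52.3 and 57.6 CPM without. Every library without serum was under every library with serum, and WT3, highest with serum, was lowest without it. The mean fell from 67.2 ± 2.06 to 57.4 ± 3.55 CPM (SD, n = 4), or -0.23 ± 0.07 on the log2 scale (SE, edgeR's adjusted p = 0.0301). *ME1* passed with the block too (edgeR's adjusted p = 0.0079), but not after a correction for GC content in the same fit, where its log2 fold change was -0.06 (edgeR's adjusted p = 0.339). Without the block it passed in 3 of 12 refits that each removed 1 library or both of a line: without WT4, without WT4 with serum, and without WT1 in the serum-free group. In the other 9 its adjusted p in edgeR reached 0.147.

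The synthesis enzymes *ACACA* and *FASN* did not pass the test. *ACACA* (ENSG00000278540, chromosome 17, 37084992 to 37406836) was at 121, 107, 131 and 91.1 CPM in WT1 to WT4 with serum and at 109, 99.5, 120 and 90.3 CPM without. It was lower in each line, least in WT4, but the lines differed more from one another than the conditions did. The log2 fold change was -0.10 ± 0.12 (SE, edgeR's adjusted p = 0.578), and with the block its adjusted p in edgeR was 0.152.
*FASN* (ENSG00000169710, chromosome 17, 82078338 to 82098236) had the most reads of the 10 genes, with 917, 986, 1179 and 1239 CPM in WT1 to WT4 with serum. Without serum it was at 999, 1026, 1229.6 and 990.3 CPM. It was slightly higher in WT1, WT2 and WT3 (log2 differences of 0.12, 0.06 and 0.06) and lower in WT4 (-0.32), and the ranges overlapped. The means of 1080.4 ± 153 and 1061 ± 113 CPM (SD, n = 4) gave a log2 fold change of -0.03 ± 0.11 (SE, edgeR's adjusted p = 0.892). With the block, 2 standard errors on either side spanned -0.15 to 0.11. Without both WT4 libraries, *FASN* did not pass either, nor did it in any of the 12 refits (log2 fold changes of -0.11 to 0.08). A correction for GC content gave another value, -0.28, called with the block (edgeR's adjusted p = 2.55e-05) and without it (0.0429).

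**Figure D1:**
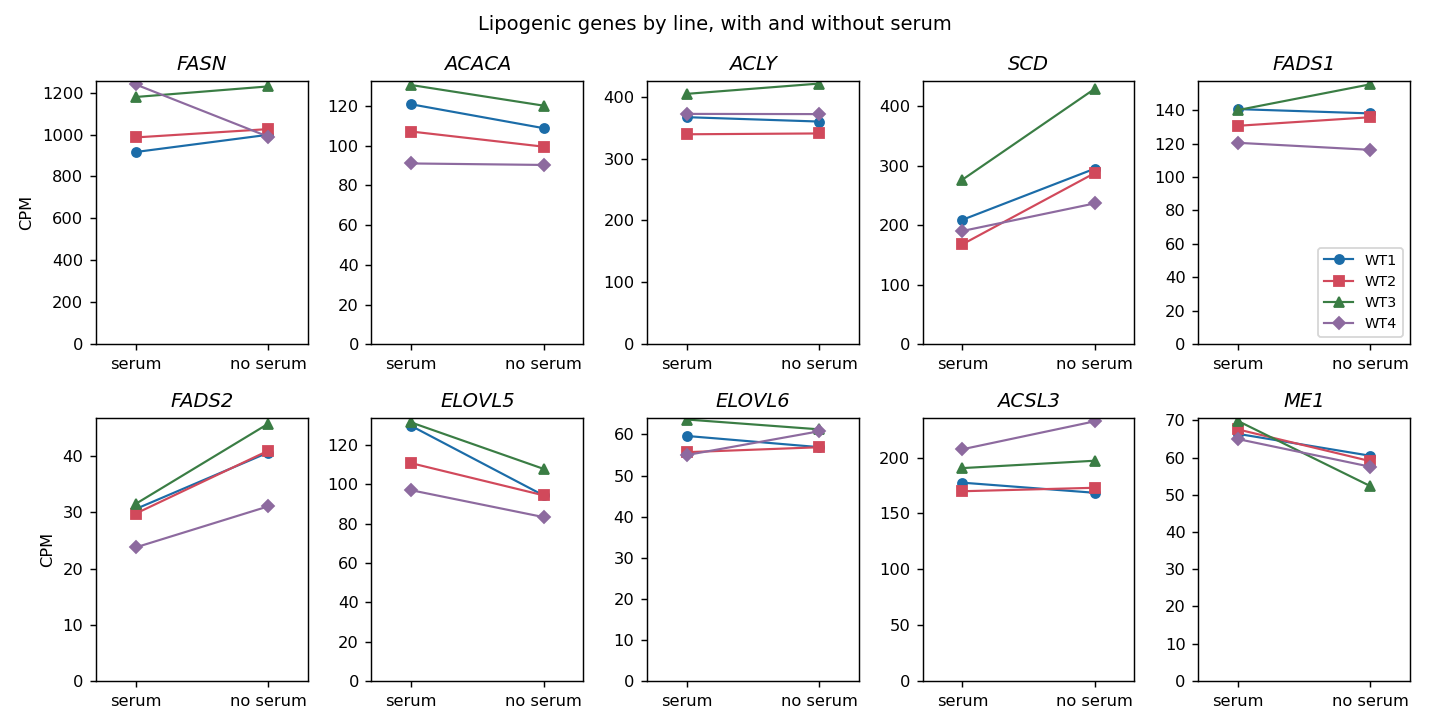
CPM (y axis, linear from 0) of each of the 10 genes with serum and without serum, 1 point per library, with a line joining the libraries of WT1, WT2, WT3 and WT4. *SCD* and *FADS2* are higher without serum in all 4 lines, *ACACA*, *ELOVL5* and *ME1* lower in all 4, and *FASN* lower in WT4 alone, from 1239 to 990.3 CPM.

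Desaturase genes held the largest difference among the 10. *SCD* (ENSG00000099194, chromosome 10, 100347233 to 100364826), the stearoyl-CoA desaturase, was at 209, 168, 277 and 190.4 CPM in WT1 to WT4 with serum and at 295, 288, 429.5 and 237 CPM without. WT4 without serum was under WT3 with serum, so the ranges overlapped, but each line was higher than itself with serum, by 0.50, 0.78, 0.63 and 0.31 on the log2 scale. The means were 211 ± 46.9 and 312 ± 82.3 CPM (SD over the 4 lines). Its log2 fold change of 0.57 ± 0.21 (SE) missed the threshold without the block (edgeR's adjusted p = 0.0807) and passed with it (0.56 ± 0.07, edgeR's adjusted p = 1.38e-05). DESeq2 without the block also called it (adjusted p = 0.0215). Without the block, it passed in 3 of the 12 refits on fewer libraries: without WT3, without WT3 with serum, and without WT4 in the serum-free group.
*FADS2* (ENSG00000134824, chromosome 11, 61816203 to 61867354) encodes the desaturase that starts the conversion of dietary polyunsaturated fatty acids. It was at 30.6, 29.8, 31.5 and 23.8 CPM with serum and at 40.7, 41.0, 45.8 and 31.1 CPM without. The 4 lines rose by similar amounts (0.41, 0.46, 0.54 and 0.39 on the log2 scale), and the ranges overlapped in 1 pair of libraries, WT4 without serum being just under WT3 with serum. The log2 fold change was 0.45 ± 0.13 (SE, edgeR's adjusted p = 0.029), and with the block 0.45 ± 0.06 (edgeR's adjusted p = 4.89e-05). After a correction for GC content it was 0.29, called with the block (edgeR's adjusted p = 0.000347) but not without it (0.249). Without both WT4 libraries, edgeR's adjusted p was 0.0015. Of the 12 refits on fewer libraries, it passed without WT4, without either WT4 library and without WT3 with serum, and was lost in the other 8, where edgeR's adjusted p reached 0.116.
*FADS1* (ENSG00000149485, chromosome 11, 61799627 to 61817003), whose enzyme acts later in the same chain, was at 141, 131, 140.0 and 120.5 CPM with serum and at 138, 136, 155 and 116 CPM without. Its log2 fold change was 0.04 ± 0.09 (SE, edgeR's adjusted p = 0.811), with 2 lines higher and 2 lower. *FADS1* and *FADS2* are neighbours on opposite strands whose ends overlap. Other genes' exons cover 5.57% of the exons of *FADS1* and 5.11% of those of *FADS2*, and the strand setting of the counts is not stated.

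Of the 2 elongase genes, *ELOVL5* was lower without serum in every line and *ELOVL6* was not. *ELOVL5* (ENSG00000012660, chromosome 6, 53267404 to 53348950), which lengthens polyunsaturated chains, was at 130, 111, 132 and 97.1 CPM in WT1 to WT4 with serum and at 94.4, 94.5, 108 and 83.4 CPM without. Each line was lower, by 0.46, 0.23, 0.29 and 0.22 on the log2 scale, although WT4 with serum was under WT3 without it. The means were 117 ± 16.4 and 95.1 ± 10.0 CPM (SD over the 4 lines). The log2 fold change of -0.30 ± 0.11 (SE) missed the threshold (edgeR's adjusted p = 0.0739) and passed with the block (-0.30 ± 0.06, edgeR's adjusted p = 0.000676). Without the block it passed in 3 of the 12 refits on fewer libraries: without WT4, without WT4 with serum, and without WT3 in the serum-free group.
*ELOVL6* (ENSG00000170522, chromosome 4, 110045846 to 110199202), which lengthens saturated chains, was at 59.6, 55.7, 63.6 and 55.0 CPM with serum and at 56.9, 56.9, 61.2 and 60.8 CPM without. The range without serum lay inside the range with serum. Its log2 fold change was 0.01 ± 0.07 (SE, edgeR's adjusted p = 0.927), and with the block 2 standard errors spanned -0.11 to 0.13.
*ACSL3* (ENSG00000123983, chromosome 2, 222861036 to 222944639), the acyl-CoA synthetase, was at 178, 169.9, 191 and 207 CPM with serum and at 168, 173, 197 and 233 CPM without. It was lower in WT1 and higher in the other lines, most in WT4. The log2 fold change was 0.05 ± 0.11 (SE, edgeR's adjusted p = 0.78).

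Counted over the 10 genes, 1 rose and 1 fell in edgeR's test without the block, beside 11.1% higher and 14% lower of all 17671 genes. With the line as a block, 2 rose and 2 fell, beside 23.2% higher and 22.4% lower of all genes. In direction alone, 2 were higher in all 4 lines and 3 lower in all 4, where 28.8% and 26.6% of all genes were. No gene of the 10 had all serum-free libraries above all serum libraries (12.6% of all genes), and 1, *ME1*, had them all below (15% of all genes). In these fits without a GC correction the shares of the 10 genes were near those of all genes. Taken line by line, the median log2 difference over the 10 was -0.05, 0.03, 0.05 and -0.01 for WT1 to WT4, close to 0 in each line.

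GC content bore on which of the genes were called. Across the 17425 tested genes with a known value, the log2 fold change rose with GC content (Spearman's rho of 0.36, a description across genes). Among the 10, *FASN* had 65.3% GC, *FADS2* 58.6%, *ACACA* 48.9%, *SCD* 46.5%, *ME1* 39.3% and *ACSL3* 37.1%. With the line as a block and a correction for GC content, 4 genes were higher, beside 23.8% of all genes, and 3 lower, beside 22.6%. *SCD* (log2 fold change 0.58, edgeR's adjusted p = 8.86e-05), *FADS2* (0.29, 0.000347) and *ELOVL5* (-0.18, 0.00274) passed in the same direction as before. *ACSL3* (0.25, edgeR's adjusted p = 9.72e-05), *ELOVL6* (0.13, 0.0228), *FASN* (-0.28, 2.55e-05) and *ACACA* (-0.11, 0.0407) passed in this fit and not with the block alone, and *ME1* no longer passed. With the block, the correction thus moved the values of *FASN*, *ACSL3*, *ELOVL6*, *FADS2* (0.45 to 0.29), *ELOVL5* (-0.30 to -0.18) and *ME1* (-0.23 to -0.06), and that of *SCD* little.

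**Figure D2:**
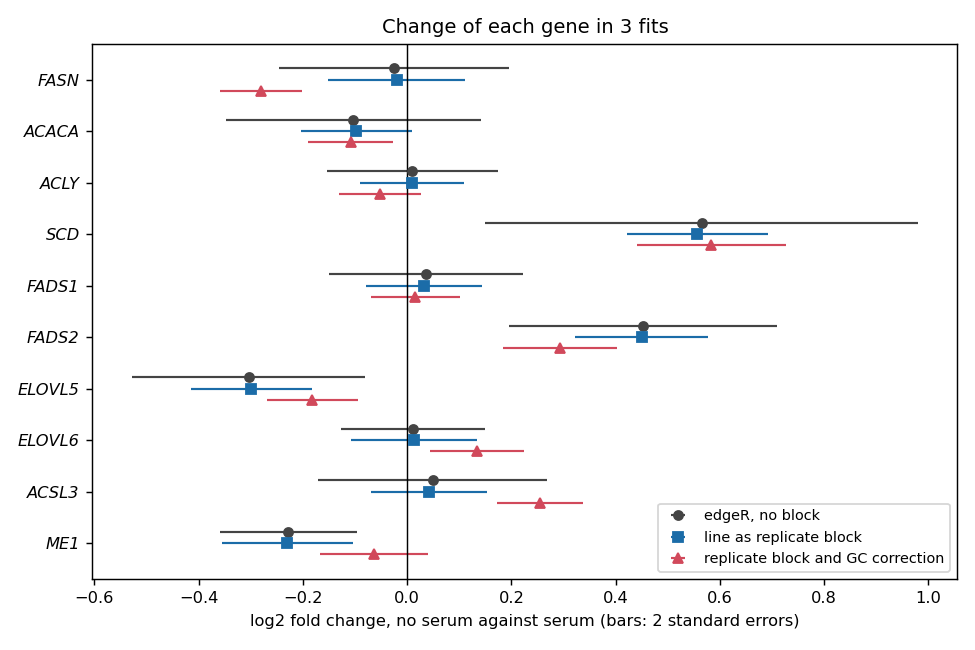
Log2 fold change, no serum against serum (x axis), of each gene in 3 edgeR fits: without a block (circles), with the line as a replicate block (squares), and with the block and a GC correction (triangles), with bars of 2 standard errors. *SCD* stays between 0.56 and 0.58 while its bars shorten with the block, *FASN* moves from -0.02 to -0.28 and *ACSL3* from 0.04 to 0.25 with the GC correction.

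Ratios of 2 genes within a library do not depend on how libraries are scaled. They were not corrected for GC content, which can bear on them where the 2 genes differ in it. GC content was 46.5% for *SCD* and 65.3% for *FASN*, 58.6% for *FADS2* and 49.3% for *FADS1*, and 41.4% for *ELOVL6* and 41.7% for *ELOVL5*. The 4 pairs below were chosen after the values were seen and are given as a description, without a test. *SCD* reads per *FASN* read were 0.228, 0.170, 0.235 and 0.154 in WT1 to WT4 with serum and 0.296, 0.281, 0.349 and 0.239 without. *FADS2* reads per *FADS1* read were 0.218, 0.228, 0.225 and 0.197 with serum and 0.295, 0.302, 0.294 and 0.267 without. *ELOVL6* reads per *ELOVL5* read were 0.459, 0.502, 0.484 and 0.566 with serum and 0.603, 0.602, 0.567 and 0.729 without. In these 3 pairs the serum-free libraries lay above the serum libraries. For the elongases and for *SCD* to *FASN* they were only just apart, at 0.566 and 0.567 and at 0.235 and 0.239. *SCD* reads per read of its paralog *SCD5* were 37.9, 27.8, 40.7 and 26.2 with serum and 55.8, 47.0, 66.6 and 36.5 without, higher in each line with ranges that overlapped. *FASN* supplied 41.3% to 50.3% of the reads of the 10 genes with serum and 43.0% to 44.3% without, the highest share being that of WT4 with serum. Summed over the 10 genes, the level was 2165 to 2618 CPM with serum and 2271 to 2820.4 CPM without.

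**Figure D3:**
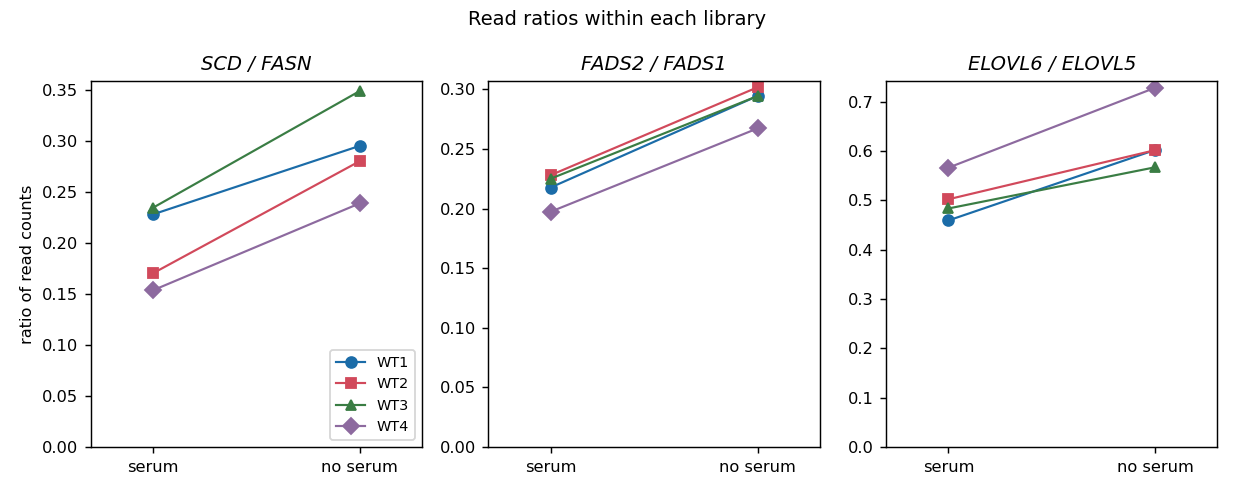
Ratio of read counts within each library (y axis, linear from 0) for *SCD* to *FASN*, *FADS2* to *FADS1* and *ELOVL6* to *ELOVL5*, with serum and without serum, 1 point per library and a line for each of WT1 to WT4. Each ratio is higher without serum in all 4 lines, and the ranges of the conditions do not overlap. The ratios are not corrected for GC content.

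Levels were compared between genes per length, as RPKM (reads per kilobase of merged exons and library size). With serum, *FASN* was at 116 ± 16.5 RPKM (SD, n = 4) and ranked at 312 of 17425 genes, whose median was 2.75. *ACLY* followed at 71.2 ± 5.14, *SCD* at 40.2 ± 8.94, *ELOVL5* at 30.8 ± 4.31 and *ME1* at 20.1 ± 0.617 RPKM. *FADS1* (13.0 ± 0.928), *ACSL3* (12.9 ± 1.14), *ACACA* (8.64 ± 1.32) and *ELOVL6* (8.04 ± 0.550) were lower, and *FADS2*, at 2.74 ± 0.332 RPKM, was near the median gene. The synthase and the lyase thus ranked high among the mRNAs of these cells, and *FADS2* in the middle. Neighbours in this order did not overlap, except *SCD* and *ELOVL5* (in order in 4 of 4 lines), *FADS1* and *ACSL3* (3 of 4), and *ACACA* and *ELOVL6* (3 of 4).
Without serum, *SCD* moved up in the ranking from 1036 to 549, at 59.5 ± 15.7 RPKM, and its range overlapped that of *ACLY* (71.7), which it passed in 1 line. *FASN* (114), *ELOVL5* (24.9), *ME1* (17.2) and *FADS2* (3.75, with all genes' median at 2.93) kept their places, while the orders of *ACSL3* and *FADS1* (13.4 and 13.3) and of *ELOVL6* and *ACACA* (8.10 and 8.05) did not hold over the lines. The length used matters: with the longest transcript's length, *FADS1* (30.5 RPKM with serum) and *ACSL3* (22.1) were above *ME1* (20.1), and *FADS2* was at 5.70 RPKM.

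**Figure D4:**
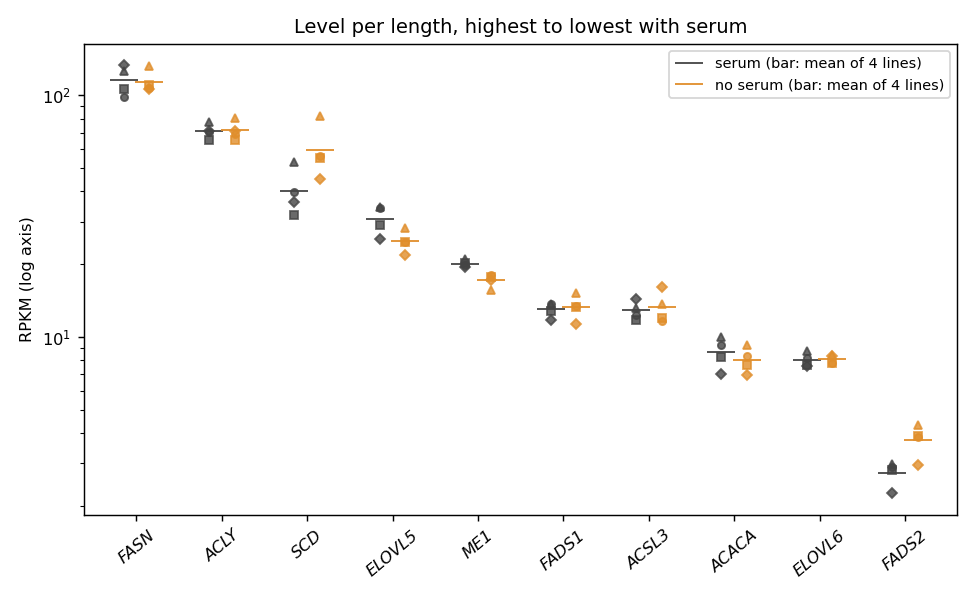
RPKM (log axis) of the 10 genes, ordered from highest to lowest with serum, with 1 point per library (circle WT1, square WT2, triangle WT3, diamond WT4), serum in grey and no serum in orange, and a bar at the mean of 4 lines. *FASN* is highest at 116 and *FADS2* lowest at 2.74 RPKM with serum, and *SCD* lies at 40.2 RPKM with serum and 59.5 RPKM without.

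Around these enzymes, the regulators of their transcription were examined from a list of 16 genes, 14 of them tested. Without the block, 4 rose, 1 fell and 9 did not pass, with a median log2 fold change of 0.17. Of all genes, 11.1% rose and 14% fell in that fit. With the block, 7 rose and 2 fell, beside 23.2% and 22.4% of all genes. A GC correction in addition gave 7 higher and 4 lower, beside 23.8% and 22.6% of all genes. *INSIG1*, which retains the SREBP precursors in the endoplasmic reticulum and is itself a target of them, was at 11.9, 12.1, 18.7 and 14.5 CPM in WT1 to WT4 with serum and at 46.2, 54.0, 60.9 and 35.1 CPM without. Every library without serum was above every library with it, and the log2 fold change was 1.78 ± 0.20 (SE, edgeR's adjusted p = 0.00114). *SREBF2* rose from 64.1 ± 10.4 to 102 ± 17.1 CPM (log2 fold change 0.67, edgeR's adjusted p = 0.00767). *SREBF1*, whose product is known to favour fatty acid genes, was at 87.4, 102, 129 and 165 CPM with serum and at 144, 167, 189 and 195 CPM without. It was higher in each line, least in WT4, and passed with the block (log2 fold change 0.56, edgeR's adjusted p = 2.43e-05) but not without it (0.53, 0.0748). With block and GC correction its value was 0.33 (edgeR's adjusted p = 2.03e-05). *RXRB*, one of the retinoid X receptors that partner the liver X receptors, rose from 26.8 to 34.3 CPM over the lines with serum to 40.9 to 46.6 CPM without (0.60, edgeR's adjusted p = 0.00262). The next 3 genes were named after their values were seen. *RXRA* did not pass (0.25, edgeR's adjusted p = 0.155, and 0.0202 with the block). Of the liver X receptor genes, *NR1H3* rose (0.87, edgeR's adjusted p = 0.00283) and *NR1H2* did not pass (-0.01, 0.95).

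Of 14 genes that supply acetyl-CoA, citrate and NADPH, 3 rose and 2 fell, beside 11.1% and 14% of all genes. The other 9 did not pass, and the median log2 fold change was 0.26. *CS*, the citrate synthase of mitochondria, fell from 323 ± 14.8 to 231 ± 9.81 CPM (log2 fold change -0.48, edgeR's adjusted p = 0.0014). *ME2*, the mitochondrial malic enzyme, fell from 94.9 ± 6.73 to 71.1 ± 2.24 CPM (-0.42, edgeR's adjusted p = 0.00317). *ME2* moved to -0.25 with block and GC correction and still passed (edgeR's adjusted p = 0.00013). The other mitochondrial malic enzyme gene, *ME3*, named after its values were seen, was higher in all 4 lines, at 8.29 ± 1.24 and 10.7 ± 1.47 CPM (log2 fold change 0.36, edgeR's adjusted p = 0.0983, and 0.37 with the block, 0.00868). *ACSS2*, the cytosolic acetyl-CoA synthetase, named after its values were seen, rose from 14.4 ± 5.48 to 36.3 ± 19.5 CPM (1.35, edgeR's adjusted p = 0.0432), with overlapping ranges. With the block, 9 of the 14 rose and 3 fell, beside 23.2% and 22.4% of all genes. A GC correction in addition gave 7 higher and 3 lower, beside 23.8% and 22.6% of all genes.

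Among 20 paralogs and partner enzymes of the elongases and desaturases, 17 were tested. Of these, 2 rose and 6 fell, beside 11.1% and 14% of all genes. The other 9 did not pass, and the median log2 fold change was -0.21. With the block, 2 rose and 7 fell (23.2% and 22.4% of all genes). A GC correction in addition gave 2 higher and 6 lower (23.8% and 22.6% of all genes). Of the 4 dehydratase genes of the elongation cycle, 2 fell: *HACD3* from 184 ± 14.7 to 134 ± 8.92 CPM (log2 fold change -0.46, edgeR's adjusted p = 0.00373) and *HACD2* from 95.2 ± 10.3 to 66.2 ± 5.44 CPM (-0.52, 0.00432). *HACD1* (-0.10, edgeR's adjusted p = 0.627) and *HACD4* (-0.21, 0.631), named after their values were seen, did not pass. *FADS3*, the third gene of the *FADS* cluster, rose from 43.2 ± 4.17 to 55.8 ± 7.39 CPM (0.37, edgeR's adjusted p = 0.0309), a call present in 4 of the 12 refits on fewer libraries and lost with the GC correction without the block (edgeR's adjusted p = 0.127). *ACACB*, the mitochondrial acetyl-CoA carboxylase, rose from 11.5 ± 1.17 to 15.6 ± 1.15 CPM (0.43, edgeR's adjusted p = 0.0164, lost in 3 of those refits and, at 0.0638, with that correction), while its paralog *ACACA* had a value of -0.10 that did not pass. *SCD5*, the paralog of *SCD*, was at 6.40 ± 0.777 and 6.09 ± 0.557 CPM (-0.07, edgeR's adjusted p = 0.742). The differences between paralogs were not tested.

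Of 17 other acyl-CoA synthetases and fatty acid uptake genes, 14 were tested, of which 2 rose, 1 fell and 11 did not pass, with a median log2 fold change of 0.0031. The fatty acid transport genes *SLC27A1* (21.4 ± 2.80 to 41.5 ± 4.87 CPM, log2 fold change 0.96, edgeR's adjusted p = 0.00112) and *SLC27A3* (6.40 ± 1.22 to 12.4 ± 2.17 CPM, 0.96, 0.00437) rose. Named after its values were seen, *SLC27A4* of the same family was lower in all 4 lines, at 67.4 ± 7.78 and 60.3 ± 5.58 CPM (-0.16, edgeR's adjusted p = 0.26, and 0.0388 with the block, with -0.37 and 1.58e-05 once GC was corrected as well). The gene that fell, *FABP5*, also named after its values were seen, a fatty acid-binding protein, went from 54.1 ± 9.56 to 35.6 ± 6.32 CPM (-0.60, edgeR's adjusted p = 0.0211). *ACSL1* was at 56.0 and 49.2 CPM (-0.19, edgeR's adjusted p = 0.192, and 0.0266 with the block), and *ACSL4*, known for activating arachidonate, at 67.2 and 64.9 CPM (-0.05, edgeR's adjusted p = 0.776). With block and GC correction *ACSL4* was called higher (0.19, edgeR's adjusted p = 0.00314). With the block, 3 genes of this list rose and 3 fell.
Of 11 genes of mitochondrial fatty acid synthesis, 1 rose, 1 fell and 9 did not pass, with a median of -0.01. *NDUFAB1*, the acyl carrier protein, fell from 111 ± 4.44 to 74.6 ± 6.23 CPM (-0.57, edgeR's adjusted p = 0.00159), and *ACSF3*, the malonyl-CoA synthetase, rose from 28.0 ± 1.17 to 37.6 ± 0.434 CPM (0.43, 0.00235). With the block, 1 rose and 3 fell.
The list of glycerolipid assembly and lipid droplets had 7 genes higher, 3 lower and 10 not passing of 20 tested (21 listed), with a median of 0.15. Of the 7, 3 (*PNPLA2*, *PNPLA3* and *LIPE*) belong to lipase families known for breaking down stored lipid. Another lipase gene, *MGLL*, did not pass (0.10, edgeR's adjusted p = 0.824). *PLIN2*, a lipid droplet gene, was lower in all 4 lines, at 335 ± 114 and 295 ± 91.1 CPM (-0.18, edgeR's adjusted p = 0.667, and 0.0124 with the block). These 5 genes were named after their values were seen. *LPIN1*, a phosphatidate phosphatase, rose from 43.3 ± 4.94 to 66.3 ± 6.39 CPM (0.62, edgeR's adjusted p = 0.00295), and *GPAT3*, a glycerol-phosphate acyltransferase, fell from 163 ± 19.8 to 104 ± 14.4 CPM (-0.65, 0.00498). With the block, 10 rose and 5 fell. With block and GC correction the medians of the lists moved: to -0.03, of the opposite sign, for glycerolipid assembly, to 0.15 for uptake, to 0.12 for acetyl-CoA, citrate and NADPH supply, to -0.07 for paralogs and partners, to 0.13 for regulators and to 0.0005 for mitochondrial synthesis. The median of the 10 genes was -0.02 in that fit. Over the 6 lists, 33 of 90 tested genes passed without the block and 55 with it. Of all genes tested, 11.1% were higher and 14% lower without the block, and 23.2% and 22.4% with it. Against these, the lists of uptake (3 of 14) and mitochondrial synthesis (2 of 11) had no larger a share of calls without the block than all genes.

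**Figure D5:**
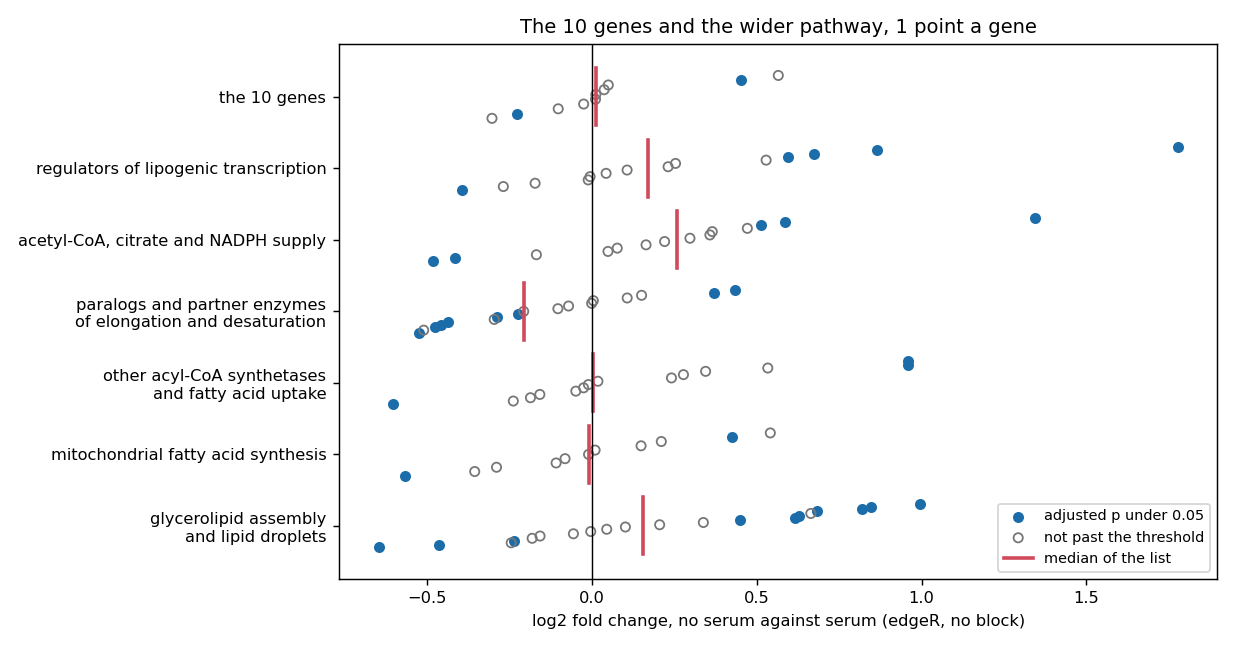
Log2 fold change, no serum against serum, in edgeR without a block (x axis), 1 point per tested gene for the 10 genes and the 6 lists around them (filled: adjusted p under 0.05, open: not past the threshold, red bar: median of the list). The 10 genes lie between -0.30 and 0.57 around a median of 0.01, while *INSIG1*, among the regulators, lies at 1.78.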

How the data were processed

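Total RNA of 8 cultures was depleted of ribosomal RNA and sequenced as paired reads. The authors deposited raw whole-number counts per gene from HTSeq on GRCh38, and the submitters' processing notes also name cutadapt and TopHat2 2.0.11. The annotation release and strand setting are not given in the sources used here. The study's own FPKM values, made on another build, were not used. Counts of no gene (16.1% to 31.0% of a library) were left out of library sizes.

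After filtering (filterByExpr) and TMM scaling, the serum-free libraries were set against the serum libraries with the robust quasi-likelihood test of edgeR 4.0.16 (glmQLFit, glmQLFTest; R 4.3.3), without a term for the line, with Benjamini-Hochberg adjustment over 17671 genes and a threshold of 0.05. CPM used TMM-scaled library sizes, log2 differences within lines a prior count of 2, and RPKM merged exon lengths. Lengths, GC content and overlaps are those of GENCODE genes lifted to GRCh37, not the build of the counts, and GC was known for 98.6% of tested genes. Positions are from RefSeq on GRCh38.p14.

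The line number pairs the libraries, since both come from the same clone. Deviations from the condition means correlated at 0.662 to 0.786 within a line and at -0.539 to 0.219 between lines (12 pairs). Each line gave 1 library per condition, so differences of response between lines have no test. Without the block, p-values set the change against the spread between these clones within a condition. With the block, they set it against how unevenly these clones responded. The test was checked on simulated data.

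The 10 genes and the lists around them were chosen with earlier results of these data known. The named genes are the 10, the 2 with the smallest p among those passing in each list, and *SREBF1*, *SREBF2*, *INSIG1*, *ACACB*, *SCD5*, *FADS3*, *ACSL1* and *ACSL4*. Alternatives were the line as a replicate block, alone and with a GC correction, DESeq2 1.42.0, voom in limma 3.58.1, upper-quartile or RLE scaling, no filter on low counts, a minimum of 10 counts in each library, each library or line left out, and for levels the longest transcript and TPM. A GC correction without the block was added after seeing the data. The result of 1 list of cell type markers is not reported here.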

Additional observations from a re-analysis of the deposited data

Results flagged for a closer look

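The level of *FASN* without serum stood apart in WT3, at 1229.6 CPM with the nearest other line at 1026 CPM. The log2 difference of *FASN* within a line stood apart in WT4, at -0.32 with the nearest other line at 0.06, and its direction there was opposite to that of the other lines. *SREBF2* without serum stood apart in WT3 too, at 127.7 CPM with the nearest other line at 95.5 CPM. *ACSL3* had a log2 difference of -0.0756 in WT1 and positive ones in the other lines. With 1 library per line and condition, these differences between lines were not tested. Of 87 sets of 4 values searched, 3 were set apart by 1 line, and chance sets apart about 1 in 20, or 4.35.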

How the results depend on the processing

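Of 609 values for the named genes under the alternatives, 546 stayed on their side of the threshold, 27 gained a call and 35 lost one. Of the 546, 22 had the opposite sign, in 6 genes that passed neither with nor without the block (*FASN*, *ACLY*, *FADS1*, *ELOVL6*, *ACSL3* and *ACSL4*), and 1 other value was called with the opposite sign: *ACSL4*, at 0.19 with the replicate block and GC correction (adjusted p of 0.00314 in edgeR). With the line as a replicate block, 8067 genes changed in place of 4434, 4 of the 10 genes (2 higher, 2 lower) in place of 2, and 55 genes of the lists in place of 33. With block and GC correction these were 8196, 7 (4 higher, 3 lower) and 55. DESeq2 called 4 of the 10 (2 higher, 2 lower), upper-quartile scaling 1 (0 lower), with *ME1* at an adjusted p of 0.0906, and GC correction without the block 1 (0 higher). Without a filter on low counts *ME1* missed the threshold (0.0711) and *ELOVL5* passed (0.049). Upper-quartile scaling gave 2508 genes higher and 1843 lower (57.6% higher, against 44.1%), and the median of the 10 genes was 0.0763 in place of 0.0107. Leaving out a library or a line gave 1589 to 6128 genes changed (lowest without WT1, also 1975 without WT2, 1873 without WT3 and 2842 without WT1 with serum), 0 to 3 of the 10 (0 to 2 higher, 0 to 2 lower), 16 to 48 genes of the lists (16 without WT3, 20 without WT1, 21 without WT2) and a median of -0.0473 to 0.0538, the lowest without WT3 in the serum-free group. The causes were not tested. With serum, 7 of the 10 genes kept their rank by level under the longest transcript's length and 10 of 10 as TPM. Each of the 10 genes had at least 675 counts in every library, and each line gave 1 library per condition.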
